A study of Mus musculus with 20 samples.

Results

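TBP and Taf1, subunits of the same general transcription factor, were compared through their ChIP-seq peak lists from mouse double-positive thymocytes. Each list was split into shared peaks, which had at least 1 bp in common with a peak of the other list, and lone peaks, which had none. The members were all 15651 TBP peaks and all 13518 Taf1 peaks, 29169 of the 270514 peaks in the 16 peak lists of the series. The series held 20 samples, and its other lists covered RNA polymerase II (Pol II), general factors, the coactivator CBP, the T-cell factor ETS1, histone marks and FAIRE, which recovers open chromatin without an antibody. The remaining 4 samples were not analysed here.

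All lists came from CD4+/CD8+ double-positive T cells of the thymus, the stage between early progenitors and mature CD4+ or CD8+ T cells, in mice of the strain C57BL/6. Protocol text on other samples of the series gives wild-type animals of 5 to 6 weeks, positive selection of the cells on magnetic columns and formaldehyde crosslinking. The labels record no treatment and no genetic alteration. Chromatin extracts were combined in batches before immunoprecipitation. TBP was precipitated with a Diagenode antibody and Taf1 with the L-20 antibody of Santa Cruz, both on Protein-G beads. File names record that TBP replicates were merged and that the Taf1 list came from 1 replicate. There was 1 list per target, so the spread between replicates is unknown for every value given and no p-value was computed. Intervals are 95% intervals, Wilson for shares and Newcombe for differences of shares, and cover counting error only. Gene annotation of the files' build was not used here, so the cell type was not checked against its marker genes.

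TFIID is the general factor that recognises core promoters. It consists of the TATA-binding protein TBP and a set of TBP-associated factors, of which Taf1 is the largest and carries bromodomains that bind acetylated histones. TBP bends DNA and nucleates the preinitiation complex, to which TFIIA, TFIIB, Pol II with TFIIF, TFIIE and TFIIH are added. TBP is also a subunit of complexes without Taf1, the selectivity factor of Pol I and TFIIIB of Pol III, whereas Taf1 is known as a subunit of TFIID. H3K4me3 marks active promoters and H3K4me1 without H3K4me3 marks many enhancers. Pol II phosphorylated on serine 5 of its C-terminal repeats (Ser5P) is the form found near initiation.

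Most TBP peaks had no Taf1 peak, and most Taf1 peaks had no TBP peak. Shared peaks numbered 2583 of 15651 for TBP, or 16.5% (15.9 to 17.1), and 2611 of 13518 for Taf1, or 19.3% (18.7 to 20.0). The lone peaks were 13068 of TBP and 10907 of Taf1. TBP peaks covered 2.25 Mb of genome and Taf1 peaks 1.38 Mb, with median peak widths of 120 and 110 bp. Joined by overlap, the shared peaks formed 2565 sites, of which 2506 held 1 peak of each list.

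The sharing rule had a sharp edge because peak ends lay on bins of 10 bp. The smallest overlaps were 10 bp, in 42 TBP peaks, of which 34 lay in H3K4me3, with a median area percentile of 67.0 in the TBP list. A further 43 TBP peaks touched a Taf1 peak with 0 bp between them, 29 of them in H3K4me3, at a median percentile of 58.3. For Taf1, 43 peaks had 10 bp in common with TBP and 45 touched a TBP peak, at median percentiles of 24.2 and 34.8. Peaks on both sides of the edge were thus mostly in H3K4me3.

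The presence of chromatin marks divided the sets in opposite directions for the 2 proteins. In the whole TBP list, 66.3% of peaks overlapped H3K4me3, 46.1% H3K4me1, 24.7% FAIRE and 60.9% total Pol II. In the whole Taf1 list these shares were 8.57%, 8.03%, 1.78% and 20.3%. Shared TBP peaks had H3K4me3 less often than lone ones, at 26.9% against 74.1%, a difference of -47.1 points (-49.0 to -45.2). They also had less H3K4me1, at 18.9% against 51.5%, and less FAIRE, at 12.8% against 27.0%. Shared Taf1 peaks had H3K4me3 more often than lone ones, at 27.3% against 4.09%, a difference of 23.2 points (21.5 to 25.0). H3K4me1 stood at 16.1% against 6.11% and FAIRE at 7.28% against 0.468% of Taf1 peaks. The shared peaks of the 2 lists formed the same 2565 sites, so their H3K4me3 shares were bound to lie close together. Over the whole lists, the opposite directions thus restate that shared peaks stood between lone TBP and lone Taf1 peaks. They do not show 2 separate behaviours of the proteins. Among peaks that overlapped H3K4me3, the directions were not the same. There H3K4me1 was at 54.0% of shared and 55.9% of lone TBP peaks, and at 43.2% of shared and 67.9% of lone Taf1 peaks. FAIRE was at 44.8% of shared and 30.2% of lone TBP peaks there.

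Total Pol II, the enzyme that the complex recruits, was more frequent at shared peaks of both lists. It overlapped 68.6% of shared and 59.3% of lone TBP peaks, a difference of 9.33 points (7.33 to 11.3). That difference was -1.94 when a Pol II peak within 500 bp counted as present, so its direction rested on direct overlap. For Taf1 the contrast was 68.3% against 8.77%, a difference of 59.5 points (57.6 to 61.4).

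**Figure D1:**
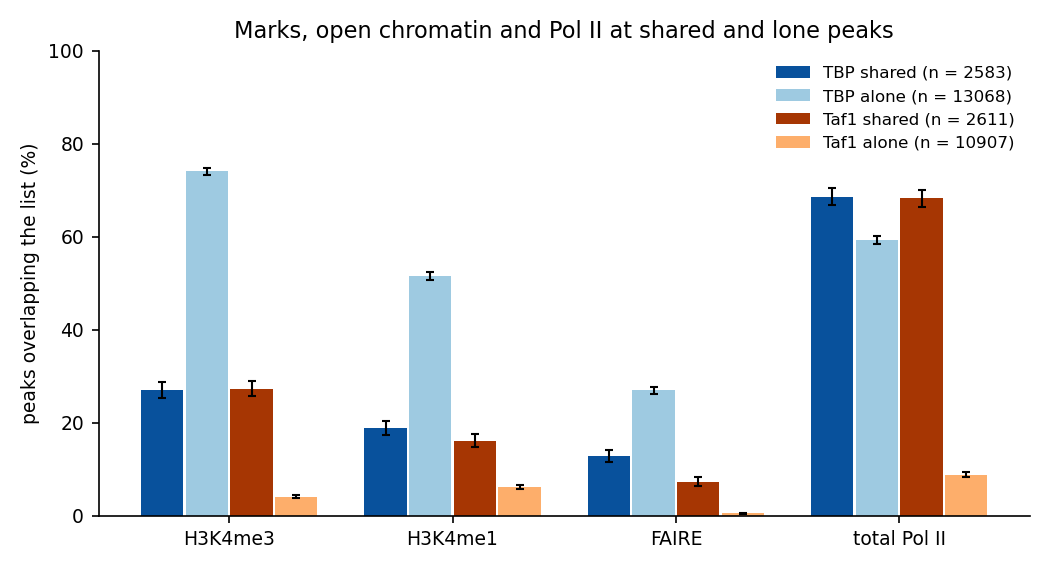
Share of peaks (%) that overlapped a peak of H3K4me3, H3K4me1, FAIRE or total Pol II, in shared and lone peaks of TBP (blue) and Taf1 (orange), with Wilson 95% intervals as bars of counting error. Lone TBP peaks stand highest for H3K4me3 (74.1%) and lone Taf1 peaks are lowest for all 4 lists (at most 8.77%).

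The commonest combination among shared TBP peaks was a Pol II peak with none of the other 3 lists, in 1039 of 2583 peaks or 40.2%. None of the 4 lists was present at a further 727, or 28.1%. All 4 were present at 170, or 6.58%. To follow this, each peak was classed as H3K4me3 if it overlapped an H3K4me3 peak, as H3K4me1-only if it overlapped H3K4me1 and not H3K4me3, and as unmarked otherwise. Of the 2565 joint sites, 680 were H3K4me3 sites (26.5%), 111 were H3K4me1-only (4.33%) and 1774 were unmarked (69.2%).

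Within H3K4me3, few TBP peaks had Taf1 but most Taf1 peaks had TBP. Taf1 overlapped 696 of 10376 TBP peaks there, or 6.71% (6.24 to 7.21), while TBP overlapped 713 of 1159 Taf1 peaks, or 61.5% (58.7 to 64.3). Among unmarked peaks the positions were exchanged, with Taf1 at 1775 of 3850 TBP peaks, or 46.1% (44.5 to 47.7), and TBP at 1786 of 11884 Taf1 peaks, or 15.0% (14.4 to 15.7). In H3K4me1-only chromatin the shares were 7.86% of 1425 TBP peaks and 23.6% of 475 Taf1 peaks. Since 2506 of the 2565 joint sites held 1 peak of each list, the shared counts of the 2 lists were nearly equal. The list with more peaks in a class therefore had to have the lower share, so these asymmetries follow the class sizes. The unmarked class joined separate kinds of place for TBP. Of the 2992 unmarked TBP peaks more than 500 bp from any H3K4me3 peak, 1754 had Taf1 (58.6%), against 21 of the 858 within 500 bp (2.45%).

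Open chromatin and Pol II refined the H3K4me3 class further. TBP peaks in H3K4me3 with both FAIRE and Pol II had Taf1 at 11.7% of 2621, and those with neither at 1.23% of 2433. With Pol II but no FAIRE the share was 7.51% of 4711, and with FAIRE but no Pol II it was 0.818% of 611. These groups also differed in area, with median percentiles of 79.8 with both and 29.3 with neither. Taf1 peaks in H3K4me3 with both had TBP at 96.5% of 171. Among unmarked TBP peaks the shares were 66.2% of the 1570 with Pol II but no FAIRE, 35.1% of the 2070 with neither, 1.65% of the 121 with FAIRE but no Pol II, and 7.87% of the 89 with both. Taf1 was therefore more common beside unmarked TBP without a FAIRE peak than with one, whether or not Pol II was present. Of the 201 unmarked lone TBP peaks with FAIRE, 172 lay within 500 bp of H3K4me3. In the Taf1 list, with Pol II present, TBP was at 70.6% of 17 unmarked peaks with FAIRE and 60.5% of 1715 without. With no Pol II peak the shares were 5.88% of 34 and 7.25% of 10118.

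The area of a peak, the authors' signal summed over it, was used as a rank within its own list, as a percentile that reaches 100 for the highest peak. The areas of Taf1 peaks ran from 4073 to 218762. Shared Taf1 peaks were large, with a median percentile of 78.0 against 43.5 for lone ones. Shared TBP peaks were not, at 47.3 against 51.0, and ranking by area per base turned that order, to 54.8 against 48.8. The TBP median joined unlike classes, since shared TBP peaks stood at percentile 87.9 in H3K4me3 and 39.9 when unmarked. Lone TBP peaks stood at 57.5 and 36.2. The highest decile of the TBP list by area held 46.3% of shared TBP peaks in H3K4me3 and 0.338% of unmarked shared ones. Shared Taf1 peaks went the other way, at percentile 60.3 in H3K4me3 and 82.1 when unmarked, and lone Taf1 peaks stood at 37.9 and 43.7. Sites of both proteins thus combined large TBP with middling Taf1 peaks in H3K4me3, and middling TBP with large Taf1 peaks outside the marks.

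By deciles of area, from 1 for the lowest to 10 for the highest, sharing in H3K4me3 was 1.47% in decile 1 and 22.5% in decile 10 of TBP. A count by overlap depends on peak width. Counting a Taf1 centre within 250 bp of the TBP centre, which does not depend on width, gave 5.80% and 23.0%. Among unmarked TBP peaks sharing was 24.9% in decile 1, reached 58.2% in decile 6, and was 2.94% in decile 9 and 6.82% in decile 10. For Taf1 the share with TBP went from 44.2% in decile 1 to 90.0% in decile 10 in H3K4me3, and from 1.33% to 49.1% in unmarked chromatin. With the centre count, Taf1 in H3K4me3 had TBP at 70.8% in decile 1, 66.1% in decile 5 and 90.0% in decile 10, so the spread over deciles was smaller, and unmarked Taf1 had 2.75% in decile 1 and 49.1% in decile 10. The largest TBP peaks were thus the most often shared in H3K4me3 and among the least often shared in unmarked chromatin.

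**Figure D2:**
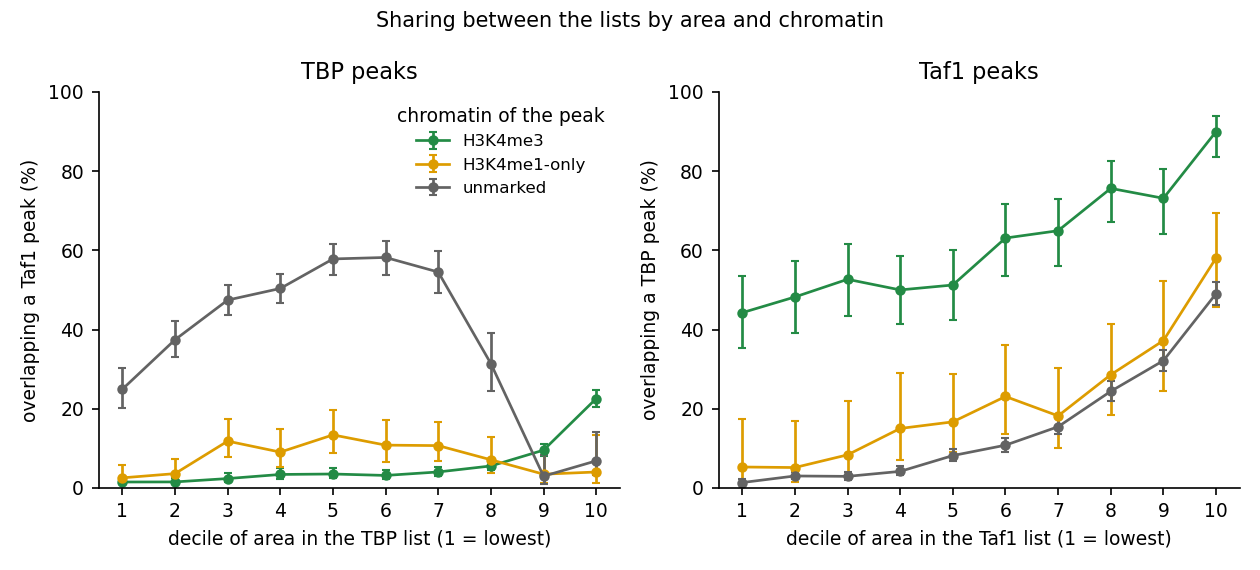
Share (%) of TBP peaks (left) and Taf1 peaks (right) that overlapped the partner, by decile of area within the list and by chromatin class, with Wilson 95% intervals. Unmarked TBP peaks peak in decile 6 (58.2%) and are low in decile 9 (2.94%), while Taf1 curves end at 90.0% in H3K4me3 and 49.1% in unmarked chromatin.

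Widths differed between the same classes. Shared TBP peaks in H3K4me3 had a median width of 240 bp (quartiles 160 and 340), against 100 bp (90 and 110) when unmarked. Shared Taf1 peaks had medians of 120 bp (70 and 150) in H3K4me3 and 150 bp (130 and 160) when unmarked. Over all classes, shared and lone TBP peaks had medians of 110 and 120 bp, and shared and lone Taf1 peaks 150 and 90 bp. The names of the tracks carry numbers that those of TFIIA, TFIIE, TFIIF and TFIIH call elongation, and the larger number in the TBP name is 130. Among unmarked shared TBP peaks 98.0% were at most 130 bp wide, against 19.8% of shared ones in H3K4me3. Lone TBP peaks were at most 130 bp wide in 82.6% of unmarked and 50.8% of H3K4me3 cases. For Taf1, 66.6% of unmarked shared and 92.9% of unmarked lone peaks were no wider in bp than the number in the Taf1 name. The part of this processing in the classes was not tested.

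The 2 peaks of a pair lay differently over each other in the 2 kinds of chromatin. Pairs were counted for each overlapping TBP and Taf1 peak and classed by the TBP peak. In H3K4me3, 735 pairs had a median distance of 75 bp between centres (quartiles 35 and 120) and 70 bp in common, and 65.2% (61.7 to 68.5) had centres more than 50 bp apart. The TBP peak was wider in 82.4% of these pairs and contained the whole Taf1 peak in 41.2%. In the 1782 unmarked pairs the centres lay 15 bp apart (5 and 20), and 1.91% (1.37 to 2.65) were more than 50 bp apart. There the Taf1 peak was wider in 87.1% and contained the whole TBP peak in 75.3%. Pairs were thus nested on a near-common centre outside the marks and displaced within H3K4me3. Median widths in the pairs were 250 bp for TBP and 120 bp for Taf1 in H3K4me3, and 100 and 150 bp when unmarked. The part of these widths in nesting and displacement was not tested. Across pairs, which share their 2 libraries, Spearman's rho between TBP and Taf1 area was 0.00125 in H3K4me3 and 0.158 in unmarked chromatin. All 16 joint sites with several TBP peaks, and 39 of the 46 with several Taf1 peaks, were in H3K4me3.

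**Figure D3:**
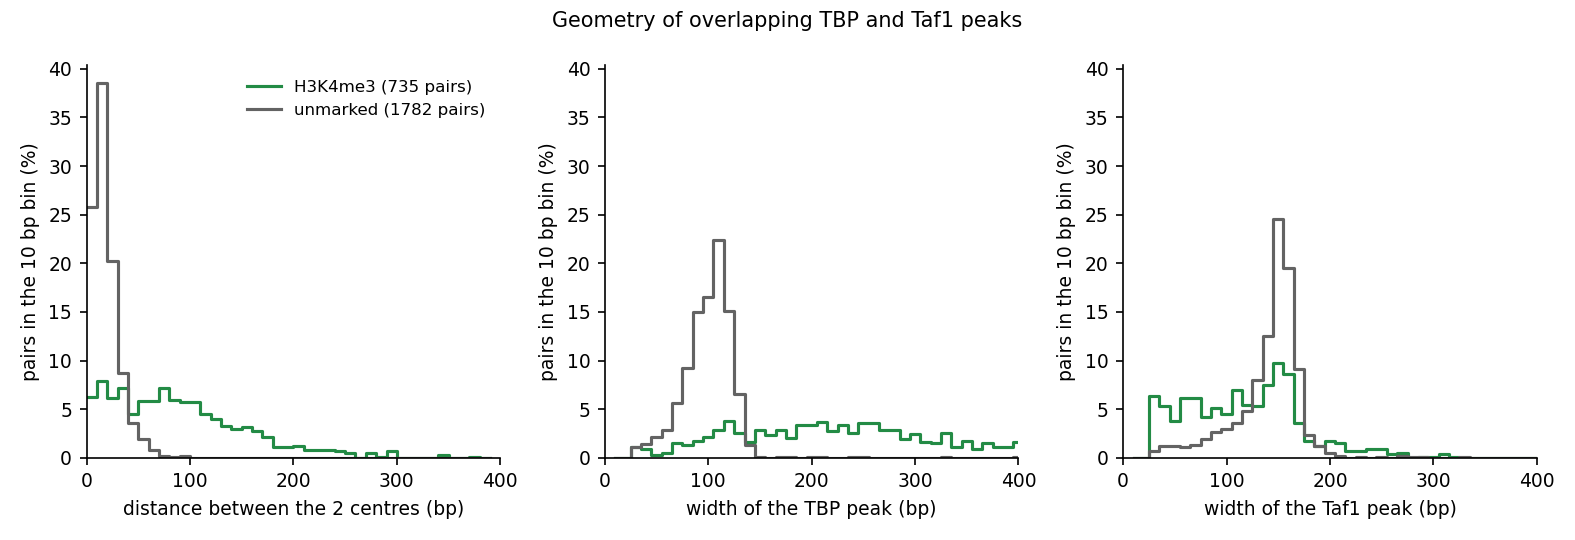
Distance between centres, TBP width and Taf1 width of overlapping pairs, in bins of 10 bp as a share of pairs (%), for TBP peaks in H3K4me3 (735 pairs, green) and unmarked ones (1782 pairs, grey). The x axis ends at 400 bp, so the widest TBP peaks lie outside it. Unmarked pairs crowd at short distances (median 15 bp) and H3K4me3 pairs spread around 75 bp.

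The centres of the other factors also lay off the TBP centre in H3K4me3. Median distances from the TBP centre at shared H3K4me3 peaks were 75 bp for Taf1, 60 bp for Pol II and TFIIH, 55 bp for Ser5P, the product of the TFIIH kinase, 40 bp for TFIIE, which brings TFIIH to the complex, and 35 bp for TFIIA and for TFIIB, which joins TBP to Pol II. The TFIIB list came from 1 replicate. At unmarked shared peaks the medians were 15 bp for Taf1 and TFIIH and 10 bp for Pol II. They were 20 bp for TFIIA, TFIIB, TFIIE and Ser5P. Wider peaks can overlap with centres farther apart. Shared TBP peaks had a median width of 240 bp in H3K4me3 and 100 bp when unmarked, and the part of width in these distances was not tested. Transcript direction was not used, so upstream and downstream cannot be told apart.

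Lone peaks were in most cases far from a partner. The median distance from a lone TBP peak to the nearest Taf1 peak was 38865 bp, and 728 of 13068 (5.57%) were within 500 bp. Lone Taf1 peaks had a median of 95090 bp to TBP, with 382 of 10907 (3.50%) within 500 bp. The exception was lone Taf1 in H3K4me3, at a median of 255 bp (quartiles 60 and 3200), with 270 of 446 (60.5%) within 500 bp of TBP. With overlap and neighbours together, 983 of 1159 Taf1 peaks in H3K4me3, or 84.8%, had TBP within 500 bp, against 12.8% of TBP peaks in H3K4me3 with Taf1 in reach. Unmarked lone Taf1 peaks had a median of 109175 bp to TBP, and 0.822% were within 500 bp. Close neighbours of one list also differed. Another TBP peak lay within 1000 bp of 52.7% of all TBP peaks in H3K4me3 and of 11.2% of all unmarked ones. For shared TBP peaks these values were 57.0% and 1.07%, and for lone ones 52.4% and 19.9%.

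Distance to H3K4me3 told the unmarked sets apart. The median was 101240 bp for unmarked shared TBP peaks, 126295 bp for unmarked lone Taf1 peaks and 6610 bp for unmarked lone TBP peaks. Within 500 bp of H3K4me3 lay 1.18%, 0.386% and 40.3% of them. Many lone TBP peaks of the unmarked class therefore bordered H3K4me3, and few peaks of the other sets did.

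**Figure D4:**
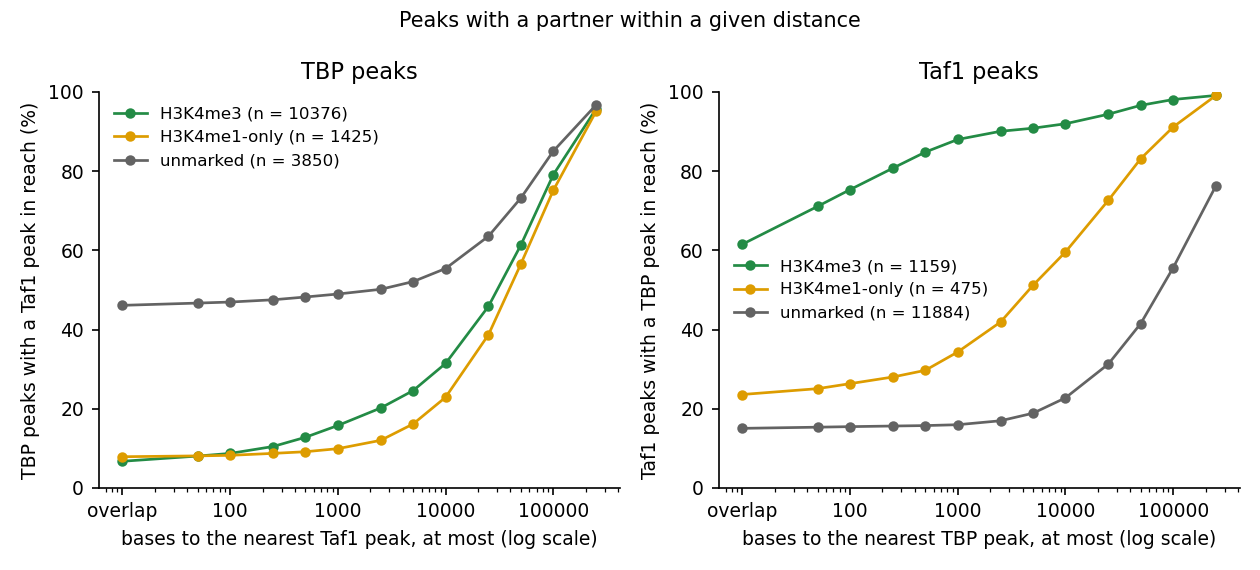
Share (%) of TBP peaks (left) and Taf1 peaks (right) with a peak of the partner at most a given number of bases away, on a log scale, by chromatin class. The leftmost point is overlap. The Taf1 curve for H3K4me3 starts at 61.5% and reaches 84.8% at 500 bp, while that of unmarked Taf1 starts at 15.0%.

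The other general factors showed which companions each set had. In the whole TBP list, 35.6% of peaks overlapped TFIIB, 42.4% TFIIE, 21.1% TFIIH, 12.7% TFIIA, 4.63% TFIIF and 40.2% Ser5P, and in the whole Taf1 list 5.15%, 18.6%, 23.1%, 12%, 3.4% and 7.84%. In H3K4me3, shared TBP peaks had each of these more often than lone ones. Pol II was at 95% against 68.9%, a difference of 26.1 points (24.0 to 27.7), and Ser5P at 83.9% against 49.2%. TFIIB stood at 74.9% against 45.8%, TFIIE at 81.5% against 42.5%, TFIIH at 44.4% against 9.97%, TFIIA, which stabilises TBP on DNA, at 35.1% against 6.35%, and TFIIF, the partner of Pol II, at 7.04% against 2.60%. FAIRE stood at 44.8% against 30.2%. H3K4me3 sites with both subunits thus carried a fuller set of general factors than sites with TBP alone, with a mean of 2.43 against 1.07 of the 5 factor lists.

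Shared TBP peaks in H3K4me3 were also larger, so peaks of like area were set side by side. Among TBP peaks in H3K4me3 and in decile 10 of area, 322 were shared and 1106 alone, at median percentiles of 96.1 and 94.6 and median widths of 350 and 320 bp. Shared peaks still had more FAIRE (64.9% against 48.8%), Pol II (98.8% against 86.2%), Ser5P (97.2% against 81.7%), TFIIB (93.5% against 78.0%), TFIIE (94.1% against 78.3%), TFIIH (60.2% against 34.1%) and TFIIA (56.2% against 25.8%). TFIIF was at 4.97% against 5.79% and ETS1 at 13.0% against 11.9%. The mean number of the 5 factors was 3.09 against 2.22.

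Unmarked shared TBP peaks had another set of companions. TFIIH was the most frequent, at 71.0% against 27.0% of unmarked lone TBP peaks, a difference of 43.9 points (41.0 to 46.7), followed by Pol II (58.9% against 29.5%), TFIIE (56.6% against 23.4%) and TFIIA (41.0% against 14.2%). TFIIF was at 15.6% against 3.95%. TFIIB was at 24 of 1775 peaks, or 1.35%, against 6.07% of lone ones. Ser5P was at 13.2% against 23.0%, but among peaks more than 500 bp from H3K4me3 this turned, to 12.8% of 1754 shared and 6.79% of 1238 lone peaks. FAIRE was at 0.507% against 9.69%. Beyond 500 bp from H3K4me3 the contrasts of the more frequent lists were smaller. TFIIH was there at 71.0% of shared against 44.3% of lone peaks and Pol II at 58.7% against 30.5%. TFIIE was at 56.3% against 31.2% and TFIIA at 40.7% against 21.5%. In the whole lists, ETS1, a sequence-specific activator precipitated on other beads, was at 7.18% of TBP and 0.621% of Taf1 peaks. At unmarked shared TBP peaks ETS1 was at 0 of 1775, which allows a share of up to 0.169% at 3 counts of the total, or 0.216% as the upper Wilson bound. ETS1 was also rare at unmarked lone TBP peaks, at 0.530%. Each list was counted separately. Outside the marks, TFIIH, TFIIE and Pol II were thus each at most shared TBP peaks, TFIIA at 41.0%, and almost none had TFIIB, FAIRE or ETS1. The latter lists were scarce in the unmarked class as a whole. TFIIB, FAIRE and ETS1 were at 3.90%, 5.45% and 0.286% of all unmarked TBP peaks. For all unmarked Taf1 peaks the shares were 1.35%, 0.429% and 0.244%.

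Peaks of like area were again set side by side. In deciles 4 to 6 of the TBP list, 985 unmarked peaks were shared and 803 alone. Pol II was at 61.2% against 30.4%, TFIIH at 73.7% against 35.5%, TFIIE at 58.8% against 29.0% and TFIIA at 42.0% against 18.8%. FAIRE (0.203% against 7.97%) and TFIIB (0.711% against 3.61%) were lower in shared peaks, also beyond 500 bp from H3K4me3 at any area (0.171% against 2.34%, and 0.912% against 2.50%). Ser5P was at 12.6% against 17.9% in deciles 4 to 6. In these deciles, peaks near H3K4me3 were not set aside for any list. From the side of Taf1, unmarked peaks in decile 10 of area had Pol II at 71.2% of 569 shared and 31.6% of 591 lone peaks. TFIIH was at 79.4% against 46.0%, TFIIE at 66.6% against 26.4% and TFIIA at 53.6% against 22.8%. Ser5P was at 19.9% against 3.89% and TFIIB at 1.76% against 6.09%. Over all unmarked Taf1 peaks, TFIIB was at 1.74% of shared and 1.29% of lone ones, and FAIRE at 0.784% and 0.366%. The lower FAIRE and TFIIB of unmarked shared TBP peaks was thus not seen in the whole unmarked Taf1 class. In decile 10 of Taf1 area, however, TFIIB was lower in shared peaks. FAIRE there was at 0.879% (0.376 to 2.04) of shared and 1.69% (0.922 to 3.09) of lone peaks, with overlapping intervals.

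CBP, an acetyltransferase found at promoters and enhancers and listed from 1 replicate, was at 11.8% of all TBP and 6.36% of all Taf1 peaks. It was at 20.3% of shared and 9.43% of lone TBP peaks in H3K4me3, and at 21.6% and 8.14% of unmarked ones. Counting CBP, ETS1, the Pol II forms and the general factors, 10 lists in all, no list was present at 1.44% of shared and 17.2% of lone TBP peaks in H3K4me3. The share was 8.62% of shared and 37.5% of lone unmarked TBP peaks, and 78.5% (7926) of unmarked lone Taf1 peaks. Ser2P, the form of Pol II that goes with elongation, was at 1.78% of all TBP and 1.36% of all Taf1 peaks, and H3K36me3, which is laid down along transcribed genes, at 1.67% and 4.19%. Ser2P was at 6.14% of unmarked shared and 1.45% of unmarked lone TBP peaks, and at 2.87% and 1.04% in H3K4me3. Unmarked lone Taf1 peaks had H3K36me3 at 4.75% and Ser2P at 0.406%. More than any other set, lone Taf1 peaks thus lay where no list of Pol II or of a factor had a peak.

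**Figure D5:**
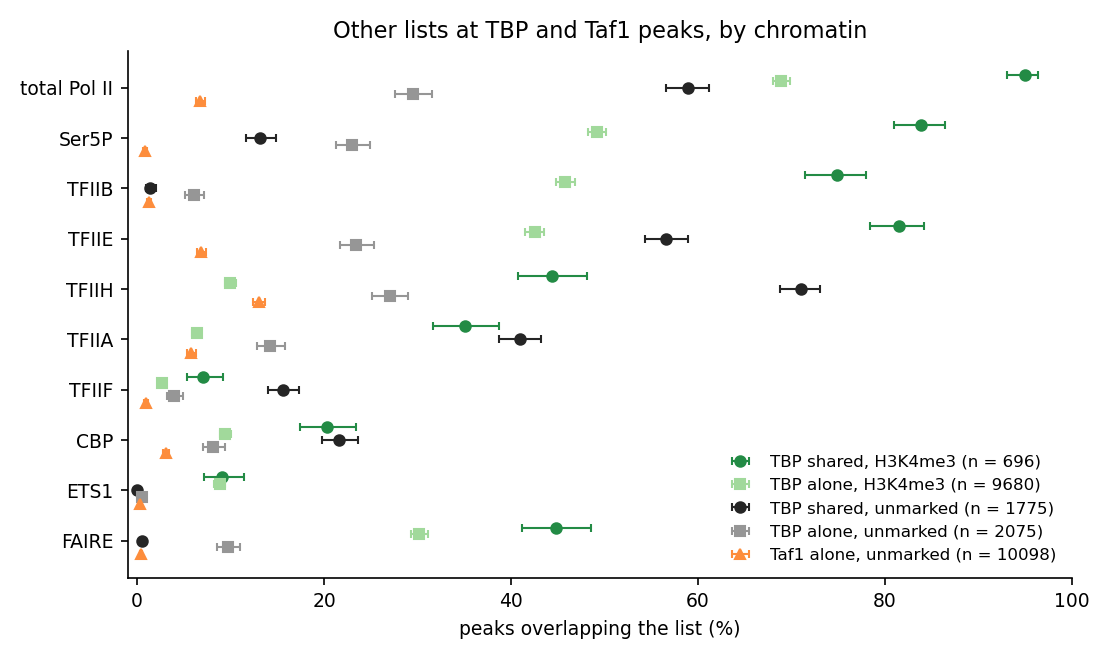
Share (%) of peaks that overlapped each of 10 lists, for shared and lone TBP peaks in H3K4me3 (green), shared and lone unmarked TBP peaks (black and grey) and unmarked lone Taf1 peaks (orange), with Wilson 95% intervals. TFIIB and Ser5P are highest at shared H3K4me3 peaks (74.9% and 83.9%), and TFIIH is highest at unmarked shared peaks (71.0%).

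Unmarked lone TBP peaks divided by their distance to H3K4me3. The 837 within 500 bp had Ser5P at 47.1%, FAIRE at 20.5% and TFIIH at 1.43%. The 1238 farther away had Ser5P at 6.79%, FAIRE at 2.34%, TFIIH at 44.3%, TFIIE at 31.2%, Pol II at 30.5% and TFIIA at 21.5%. TFIIH was thus the most frequent of these lists far from H3K4me3, as at unmarked shared peaks, and the least frequent near it. Of unmarked lone Taf1 peaks, 37 had FAIRE, and among these 22 had TFIIB (59.5%), 10 CBP, 8 ETS1, 5 Pol II, 1 TFIIH and 0 TFIIA. Over all 10098 unmarked lone Taf1 peaks, TFIIB was at 1.29%, CBP at 3.04% and ETS1 at 0.277%. Pol II was at 6.75%, TFIIH at 13.0% and TFIIA at 5.79% of them.

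Single regions, chosen by area and given in mm9 coordinates, showed the extremes. The highest joint site was on chromosome 3 (chr3:95732711-95733450), where a TBP peak of 740 bp with an area of 1042440 covered 2 Taf1 peaks, the larger with an area of 146137. The next were chr1:156946581-156947060 (480 bp), chr19:5802531-5802860 (330 bp), chr14:63379831-63380150 (320 bp) and chr15:80085361-80086060 (700 bp). All 5 had H3K4me3, FAIRE, total Pol II, Ser5P, TFIIA, TFIIB, TFIIE and TFIIH peaks. The site on chromosome 14 also had TFIIF, and that on chromosome 19 had CBP.

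The 3 highest unmarked joint sites were chr11:31770791-31770970, chr11:115885671-115886000 and chr9:31019311-31019550. They differed from the class as a whole, since all had FAIRE, Pol II, Ser5P, TFIIB and TFIIE peaks. Their TBP areas were 106607, 658341 and 330105.

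The 5 highest areas of the whole TBP list belonged to peaks without Taf1. The first was chr11:68853731-68855450, 1720 bp wide with an area of 3058840, where only H3K4me3, H3K4me1 and FAIRE of the other lists had a peak and the nearest Taf1 peak was 15500 bp away. The second, chr11:68875761-68877250 (1490 bp), also had total Pol II and a Taf1 peak 4670 bp away. The third, chr19:12085471-12086590 (1120 bp), had Pol II, Ser5P, TFIIB, TFIIE and TFIIH and lay 106190 bp from Taf1. The next, chr11:58115431-58116470 and chr5:31190161-31191070, lay 43750 and 160090 bp from Taf1. All 5 had H3K4me3, H3K4me1 and FAIRE peaks, and none had TFIIA.

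The lone Taf1 peaks of highest area lay outside H3K4me3. The first was chr6:49186371-49186650 with an area of 218762, the highest of the list, with FAIRE and TFIIB peaks and TBP 18340 bp away. FAIRE and TFIIB were also present at chr1:104524711-104524990, chr13:44964851-44965100 and chr12:79451841-79452210, with CBP at the first and second of these. The peak at chr1:85246721-85246970 had Pol II alone. Of lone Taf1 peaks with H3K4me3, FAIRE and Pol II, the highest were chr16:3351091-3351240 (area 34646) and chr9:123782221-123782380, both with TFIIB, CBP and ETS1, and chr6:91466071-91466190, which had Ser5P and TFIIB and lay 50 bp from a TBP peak.

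Sharing varied moderately along the genome. On the 19 autosomes it ran from 17.3% to 22.2% of Taf1 peaks and from 11.6% on chromosome 19 to 21.7% on chromosome 14 of TBP peaks. On chromosome X it was lower, at 19 of 263 TBP peaks, or 7.22% (4.67 to 11.0), and 20 of 236 Taf1 peaks, or 8.47% (5.55 to 12.7). The number of TBP peaks for each Taf1 peak was highest on chromosome 11, at 1.76 (1347 against 766 peaks), and lowest at 0.928.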

How the data were processed

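ChIP-seq and FAIRE peak lists of double-positive thymocytes were used as deposited, 1 per target. Each peak's area is a signal value of the authors; per the names of the deposited files it is the area under a track from which artefact regions had been removed, which had been scaled and background-subtracted (the FAIRE name records none of these steps). The build was mm9, per the submitters' processing notes. What aligner, caller and threshold were used, and how many reads, is not given in the sources used here. Depth is therefore unknown. Areas were used as ranks within a list.

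Peaks were counted as overlapping from 1 bp. Distances run from edge to edge, and centres are midpoints. Named regions were, by area, the 5 highest joint sites (by the lower of the percentiles in the 2 lists), the 3 highest unmarked joint sites, the 5 highest lone peaks of each list, and the 3 highest lone peaks of each list with H3K4me3, FAIRE and total Pol II. The members and lists were chosen with earlier results of these data known. Alternatives covered the sharing rule, the mark rule, area, list length and sex chromosomes. Python 3.11.15, numpy 2.4.6, pandas 2.3.3, scipy 1.17.1, networkx 3.6.1 and matplotlib 3.10.9 were used. The distance code was tested on simulated data, where 100% of 5000 peaks placed at known distances from the 15651 TBP peaks were recovered. No mm9 sequence or annotation was used here, so regions carry no gene and no sequence is printed. Input and immunoglobulin controls and the RNA samples were not analysed here.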

Additional observations from a re-analysis of the deposited data

How the results depend on the processing

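The shares of 16.5% of TBP and 19.3% of Taf1 peaks became 21.2% and 22.1% when peaks within 500 bp of each other counted as shared, 15.5% and 18.2% when 50% of the narrower peak had to overlap, 11.1% and 12.9% when only the 50% of peaks with the highest areas were kept, and 18.1% and 18.3% with lists of equal length. Differences below are shared minus alone, in percentage points. With 500 bp for sharing, TBP gave -33.3 for H3K4me3, -26.4 for H3K4me1, -12.1 for FAIRE and 11.7 for total Pol II, and Taf1 gave 31.2 for H3K4me3 and 16.0 for H3K4me1. With 500 bp for the mark, TBP gave -54.2 for H3K4me3, -53.9 for H3K4me1, -20.9 for FAIRE and -1.94 for total Pol II, the one reversal among the 58 values that answer a comparison, and Taf1 gave 23.1 for H3K4me1 and 13.8 for FAIRE. With 50% overlap, TBP gave -50.9 for H3K4me3, and Taf1 gave 18.6 for H3K4me3, 8.00 for H3K4me1 and 57.6 for total Pol II. With the 50% of highest area, TBP gave -41.1 for H3K4me3 and -28.4 for H3K4me1, and Taf1 gave 37.7 for H3K4me3, 15.6 for H3K4me1, 13.4 for FAIRE and 62.8 for total Pol II. With lists of equal length, TBP gave 6.19 for total Pol II. On autosomes alone, no value moved beyond its interval. The cause of these shifts was not tested. No paired analysis was possible because there was 1 list per target and the labels carry no replicate numbers. The unknown depth limits what the absence of a peak can show in every list, and the lists of Taf1, TFIIB and CBP came from 1 replicate.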
